A study of Mus musculus with 6 samples.

Results

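Neat1, Malat1, Miat and Snhg11 are long noncoding RNAs that are described as staying in the nucleus. They were picked by gene symbol from a table of 24532 genes, and each of the 4 symbols matched 1 gene. Messenger RNA was sequenced from the nucleus accumbens core of wild-type male mice, a ventral striatal region of reward and motivation. The samples are 3 titled ethanol and 3 titled control, labelled as a mixture of cell types. The protocol is worded alike for all 6 samples. It describes adolescent mice (postnatal days 35 to 55) that went through context fear conditioning, binge-like alcohol on a single day, extinction trials and then 27 days of drinking on alternate days, with tissue taken 24 h later. The alcohol was 20% v/v ethanol in saline, injected into the abdomen over 6 h at 1.8 g/kg at first and 1.2 g/kg afterwards. The treatment field names ethanol exposure for control samples too, so the groups rest on the titles. What control mice were injected with, and which steps they shared, was not stated. Nothing in the labels ties a library to a separate animal, so the spread between libraries may be technical.

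Long noncoding RNAs of this kind act in the nucleus as RNA molecules. Neat1 is the scaffold of paraspeckles, nuclear bodies that form around it with the proteins Sfpq, Nono and Pspc1. Malat1 collects in nuclear speckles, which store splicing factors, and Miat, also called Gomafu, forms spots of its own in neuronal nuclei and binds splicing factors. Snhg11 carries small nucleolar RNAs in its introns. Bulk RNA holds no record of where in a cell a transcript was, so the nuclear location is background and was not measured.

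How the RNAs end bears on how a messenger RNA library can catch them, so their 3′ ends are shown from GENCODE M21 transcripts (mm10 coordinates). The short Neat1 transcript and Snhg11 end with a standard polyadenylation signal, in capitals in both lines. The GENCODE short transcript has 3004 bases and the deposited row 3185. The first end lies at chr19:5842307-5842386 on the minus strand and the second at chr2:158386066-158386145 on the plus strand.
Neat1 short end: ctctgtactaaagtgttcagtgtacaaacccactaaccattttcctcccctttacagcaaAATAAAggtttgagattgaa
Snhg11 end: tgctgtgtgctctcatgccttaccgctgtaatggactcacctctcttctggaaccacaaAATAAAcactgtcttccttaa
The long Neat1 transcript has neither AATAAA nor ATTAAA in its last 40 bases on the RNA strand, where 59% of 24356 transcripts of at least 3000 bases have 1 of them. As background, its end is cut by RNase P and protected by a triple helix of U-rich and A-rich stretches, as is that of mature Malat1. The annotated Malat1 transcript runs on past that cut and does have AATAAA in its last 40 bases, and Miat has ATTAAA. Both ends are shown with the stretches TTTTGCTTTT, AAAAGCAAAA and TTTTTCTTTT in capitals where they occur, for chr19:5824708-5824817 and chr19:5795982-5796091 on the minus strand.
Neat1 long end: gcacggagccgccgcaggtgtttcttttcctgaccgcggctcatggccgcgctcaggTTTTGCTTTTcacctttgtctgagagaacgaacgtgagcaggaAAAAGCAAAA
Malat1 before mascRNA: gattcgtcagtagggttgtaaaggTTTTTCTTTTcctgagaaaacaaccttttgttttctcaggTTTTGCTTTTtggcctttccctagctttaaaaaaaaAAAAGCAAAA
The first stretch occurs in 3.51% and the second in 3.54% of those 24356 transcripts, and the third in 11.7%. In Malat1 the next 58 bases, at chr19:5795924-5795981, are the tRNA-like mascRNA that is cut off from the transcript.
mascRNA within Malat1: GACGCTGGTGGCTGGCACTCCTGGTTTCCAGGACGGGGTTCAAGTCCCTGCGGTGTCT
The deposited table has a row for mascRNA, with 1 read in each of the 6 libraries. Its FPKM of 2.3e-05 to 0.00158 amounts to a fraction of a read that was rounded up, so its level cannot be read from these files.

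Miat is marked by a repeat that other studies describe as a binding site of the splicing factor Sf1. The letters ACTAAC occurred 11 times on the RNA strand of the Miat transcript of 8758 bases, all in its exon 7, the last, from position 4539 to 6449. A density of matches at least as high was found in 0.0328% of the 24356 transcripts, and 38.4% held a match at all. Those transcripts include this Miat transcript itself, and any other Miat transcripts of that length were not left out. The Neat1 long transcript held 4 matches, Snhg11 held 1 and Malat1 held 0. A pair of stretches with the repeats in capitals is shown from chr5:112217309-112217458 and chr5:112216749-112216808, minus strand.
Miat repeats: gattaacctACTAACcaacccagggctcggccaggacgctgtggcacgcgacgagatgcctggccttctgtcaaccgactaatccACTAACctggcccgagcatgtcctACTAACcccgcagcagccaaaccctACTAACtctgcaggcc
Miat repeats second: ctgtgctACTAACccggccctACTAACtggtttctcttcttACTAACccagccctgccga

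In the deposited table (mm10) Neat1 lies on chromosome 19 from 5824710 to 5845480 and Malat1 from 5795690 to 5802672, on the same strand with 22037 bases between them. Miat lies on chromosome 5 from 112213228 to 112228948, and Snhg11 on chromosome 2 from 158375638 to 158386145. GENCODE M21 lists 2 snoRNA genes within Snhg11, and it types Snhg11 itself as protein coding. The deposited Snhg11 row also carries a coding (NM) accession, while the RefSeq gene table for GRCm38.p6 types the gene as lncRNA. On the strand opposite Miat, GENCODE M21 lists the RNA Gm26953, and opposite Malat1 the model Gm37376. Whether the counting used strand is not given in the sources used here, so reads of these antisense models cannot be told apart from Miat and Malat1 reads.

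The libraries held 35898026 to 67399599 estimated reads, and 2409 to 117253 of these came from each of the 4 genes in a library. Control 2 stood apart on the first principal component (75.9, against -34.3 to -0.4 for the others), which held 35.7% of the variance. That library also had the fewest genes with reads, at 15924 against 17096 to 17707 in the others, though control 3 and ethanol 3 had fewer reads in all. Over 15774 genes, 0 genes passed an adjusted p of 0.05 in edgeR's quasi-likelihood test, and 1681 had an unadjusted p under 0.05. The counts of calls were 0 with limma-voom and 144 with DESeq2.

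Per kilobase, the order of the 4 RNAs was Snhg11, Neat1, Malat1 and Miat in 6 of 6 libraries. This order and the ranks are of RNA as caught in messenger RNA libraries. How fully each RNA was caught was not measured, so they may differ from the order in the tissue. On the deposited FPKM scale, which divides by transcript length and by library size, Snhg11 averaged 89.2 ± 54.2 in ethanol and 230.9 ± 63.4 in control (SD, n = 3 each). Neat1 averaged 22.7 ± 8.10 FPKM in ethanol and 51.4 ± 5.19 FPKM in control. For Malat1 the means were 16.8 ± 9.999 FPKM in ethanol and 25.3 ± 7.11 FPKM in control, and for Miat 9.48 ± 5.12 FPKM in ethanol and 15.9 ± 6.03 FPKM in control. Ranked by FPKM over all genes of the table, Snhg11 stood between 211 and 1299, and Malat1 between 2231 and 5882. The ranges of neighbours in this order overlapped within a group for Neat1 with Malat1 and for Malat1 with Miat in ethanol. In control only Malat1 and Miat overlapped.

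**Figure D1:**
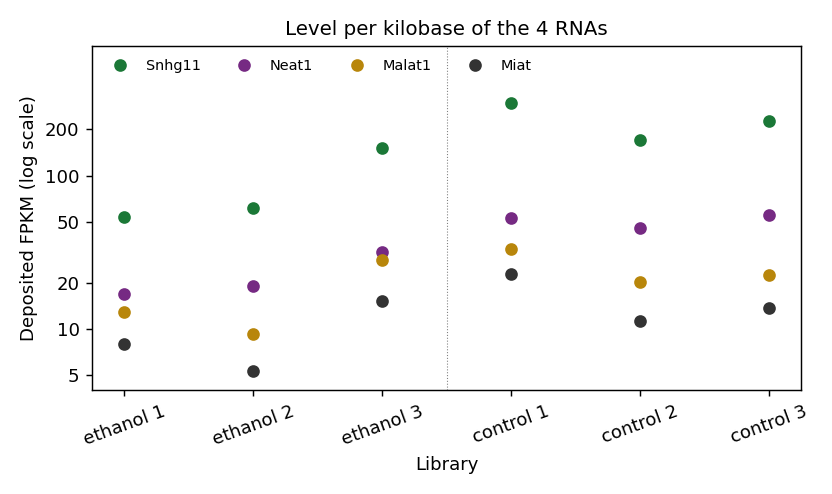
Deposited FPKM (log axis) of the 4 RNAs in each library, 3 ethanol libraries left of 3 control libraries, with 1 point per RNA and library. The order Snhg11, Neat1, Malat1, Miat, as caught in messenger RNA libraries, holds in 6 of 6 libraries. Ethanol 3 lies above ethanol 1 and ethanol 2 for each of the 4.

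Neat1, the paraspeckle scaffold, stood at 72.4, 78.0 and 123.7 CPM in ethanol 1, 2 and 3, against 198.6, 169.3 and 210.6 CPM in control 1, 2 and 3. CPM is the read count scaled to a common library size, with TMM factors. All 3 ethanol libraries lay below all 3 control libraries, with ethanol 3 nearest to them. The means were 91.3 ± 28.2 CPM in ethanol and 192.8 ± 21.3 CPM in control (SD, n = 3 each), so that ethanol over control was -1.08 on the log2 scale (SE 0.22).

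Snhg11, the snoRNA host, had the largest fold difference of the 4. It stood at 417.1, 460.0 and 1069 CPM in the ethanol libraries, against 2035, 1155 and 1564 CPM in the control libraries. The groups did not overlap, but ethanol 3 and control 2 were close. The means were 648.6 ± 364.5 CPM in ethanol and 1585 ± 440.2 CPM in control (SD, n = 3 each), with a log2 fold change of -1.29 (SE 0.36).

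Malat1, the speckle RNA, stood at 118.5, 82.0 and 235.9 CPM in ethanol, against 273.1, 163.0 and 184.7 CPM in control. Here the groups overlapped, because ethanol 3 lay above control 2 and control 3. Its log2 fold change was -0.51 (SE 0.36), and this depended on single libraries, with -1.04 without ethanol 3, -0.24 without ethanol 2 and -0.26 without control 1.

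Miat stood at 91.3, 58.6 and 159.3 CPM in ethanol, against 232.5, 115.1 and 141.1 CPM in control. Again ethanol 3 lay above control 2 and control 3. Its log2 fold change was -0.66 (SE 0.36), with -1.12 without ethanol 3, -0.39 without ethanol 2 and -0.31 without control 1. In a bulk sample, fewer cells that make an RNA and less RNA per cell cannot be told apart, and this holds for each of the 4. Without control 2, the library that stood apart, the log2 fold changes were -1.16 for Neat1, -1.47 for Snhg11, -0.65 for Malat1 and -0.86 for Miat.

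The RNAs were chosen with results of this same contrast known, so these differences are a description without a test. Of the 4, edgeR called 0 at an adjusted p under 0.05, beside 0% of all genes, and limma-voom called 0, beside 0%. Neat1 and Snhg11 were 2 of the 4 with an unadjusted p under 0.05, beside 10.7% of all genes (5.34% lower and 5.31% higher in ethanol). DESeq2 called these 2, beside 0.913%. Groups did not overlap, with ethanol below control, in 2 of the 4 and in 8.41% of all genes, and ethanol lay above control without overlap in 9.35%. The median log2 fold change over all genes tested was 0.021, and 47.3% were lower in ethanol. Because the contrast chose the members, nothing is read from these shares.

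**Figure D2:**
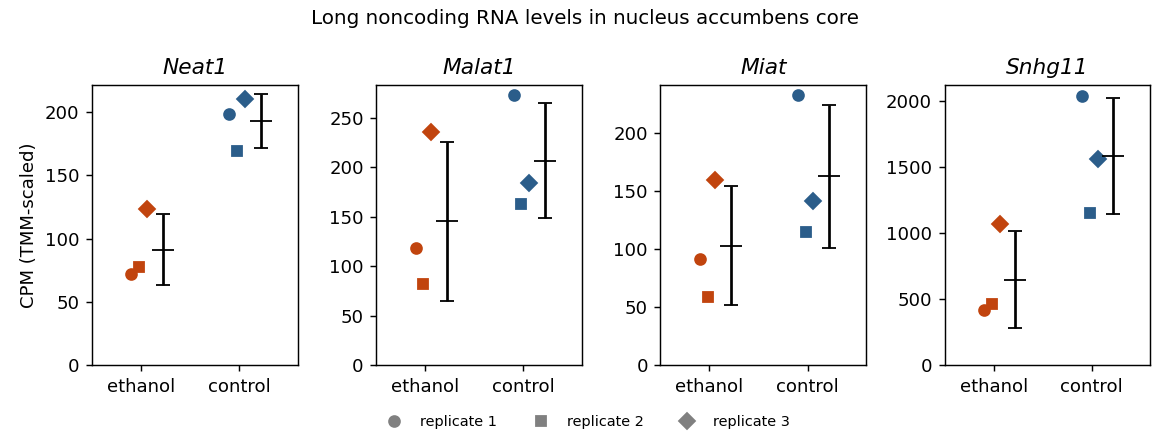
TMM-scaled CPM of each RNA in 3 ethanol and 3 control libraries, as points with replicate symbols, and the mean with SD as bars (each axis starts at 0). For Neat1 and Snhg11 the groups do not overlap, though for Snhg11 ethanol 3 (1069 CPM) lies close to control 2 (1155 CPM). For Malat1 and Miat the ethanol 3 point lies within the control range. The RNAs were chosen with results of this contrast known.

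Among libraries of 1 group the RNAs varied more than the median gene with at least 50 CPM. The coefficient of variation in ethanol was 30.8% for Neat1, 55.3% for Malat1, 49.8% for Miat and 56.2% for Snhg11, where the median over 4640 such genes was 19.1%. In control it was 11% for Neat1, 28.2% for Malat1, 37.9% for Miat and 27.8% for Snhg11, where that median was 7.71%. Malat1 and Miat moved almost in step from library to library. Their FPKM ratio was 1.62, 1.75 and 1.85 in ethanol and 1.47, 1.78 and 1.63 in control. The ratio of Neat1 to its neighbour Malat1 was less steady, at 1.32, 2.07 and 1.14 in ethanol and 1.59, 2.26 and 2.48 in control.

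Neat1 has 2 rows in the table, a short transcript of 3185 bases and a long one of 20769 bases that begins at nearly the same base and is the form that builds paraspeckles. The long row held 96, 34 and 63 estimated reads in ethanol, against 69, 50 and 63 in control. The short row held 4446, 3169 and 4546 reads in ethanol, against 11376, 6463 and 7640 in control. The long row was 2.11%, 1.06% and 1.37% of Neat1 reads in ethanol, against 0.603%, 0.768% and 0.818% in control. Per kilobase its level was 0.0554, 0.0311 and 0.0668 FPKM in ethanol, against 0.0489, 0.0539 and 0.0699 FPKM in control, and these overlapped. The groups were apart in the short row, whose values were 16.9, 19.1 and 31.9 FPKM in ethanol, against 53.0, 45.5 and 55.5 FPKM in control. Both rows cover the same 5′ stretch, so the split of reads there is an estimate. How much of the long transcript a messenger RNA library keeps was not tested.

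Miat has 2 rows of 8760 and 8716 bases, and the reads were split between them in a way that varied from library to library. Variant 1 took 33.5%, 0% and 1.95% of Miat reads in ethanol, against 43.3%, 100% and 3.68% in control. With 2 such similar sequences this split is an estimate, so only the summed value is used. Read from variant 2 alone, which has the more reads in all, the log2 fold change of Miat would be 0.04 in place of -0.66. Malat1 and Snhg11 have 1 row each.

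**Figure D3:**
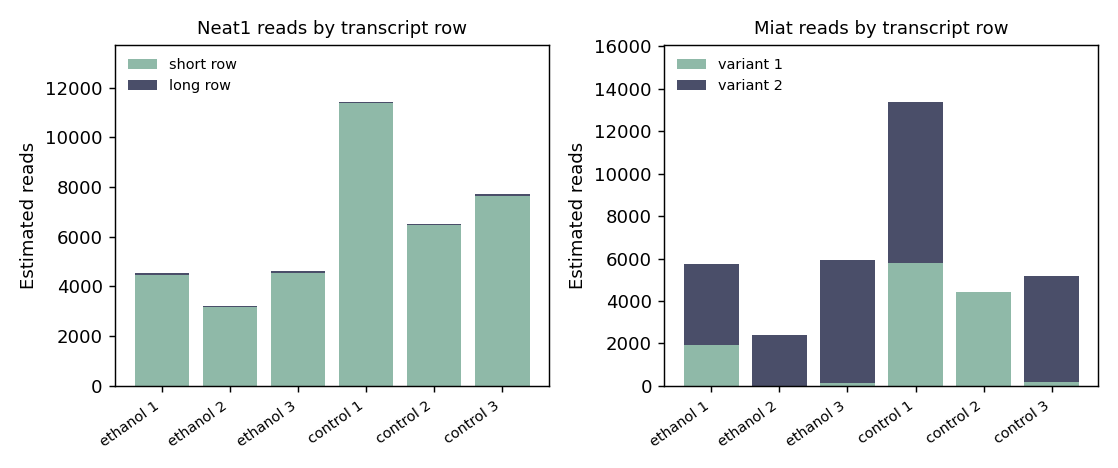
Estimated reads per library, stacked by transcript row, for Neat1 and Miat, with ethanol left of control. The long Neat1 row is hardly visible, at 34 to 96 reads, and the 2 Miat rows trade places between libraries.

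Genes that lie beside the RNAs give the local background. Within 100 kb of Neat1, 12 neighbours were tested, with Malat1 among them, and their log2 fold changes ran from -0.51 to 0.29, with 0 called by edgeR and 0 at an unadjusted p under 0.05 (the smallest adjusted p was 0.551). Frmd8, the nearest gene in the table at 5494 bases, stood at 100.1, 99.9 and 68.2 CPM in ethanol, against 77.4, 89.1 and 87.4 CPM in control. Around Malat1, 12 were tested, of which only Neat1 had an unadjusted p under 0.05, and the values ran from -1.08 (Neat1) to 1.03 (Kcnk7, at 0 to 1.02 CPM). Around Miat 4 neighbours ran from -0.13 to 0.27, and around Snhg11 3 ran from -0.17 to 0.14, again with 0 called by edgeR and 0 at an unadjusted p under 0.05. The neighbour of Snhg11 at 14116 bases is another snoRNA host gene, Snhg17, with a log2 fold change of -0.17 (SE 0.24).

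Of 32 other nuclear long noncoding RNAs listed, 25 were in the table and 22 were tested. Of these 15 were lower in ethanol and 7 higher, with a median log2 fold change of -0.40, beside 0.021 over all genes. The median was -0.24 without ethanol 1 and -0.18 without control 1. edgeR called 0, and at an unadjusted p under 0.05 there were 7 lower and 0 higher, where 5.34% of all genes were lower at that p. DESeq2 called 2 lower, beside 0.59% of all genes. This list and those that follow were chosen with earlier results of these data known. Nothing is therefore read from their counts beside the shares of all genes. Mirg, a host of microRNAs at the imprinted Dlk1-Dio3 locus, stood at 11.3, 20.9 and 23.8 CPM in ethanol, against 45.0, 31.7 and 48.0 CPM in control. Its log2 fold change was -1.16 (SE 0.28, adjusted p = 0.419 by edgeR). Kcnq1ot1, which silences its imprinted neighbours, had one of -1.32 (SE 0.37), and Firre, an X-linked RNA that anchors chromatin, one of -1.01 (SE 0.30).

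Meg3, named here after its values were seen, comes from the same locus as Mirg and Rian. It stood at 803, 638 and 1685 CPM in ethanol, against 2755, 1646 and 2097 CPM in control. As in Malat1 and Miat, ethanol 3 was the highest ethanol library and lay above control 2. Not every member of the list had this pattern. Peg13, an imprinted brain RNA, had a log2 fold change of 0.36 (SE 0.22), and 2900097C17Rik, at 859 to 1056 CPM in ethanol and 848 to 936 CPM in control, had one of 0.12. Xist, Tsix and Nespas, which were at 0 in a library, did not pass the filter on low counts.

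**Figure D4:**
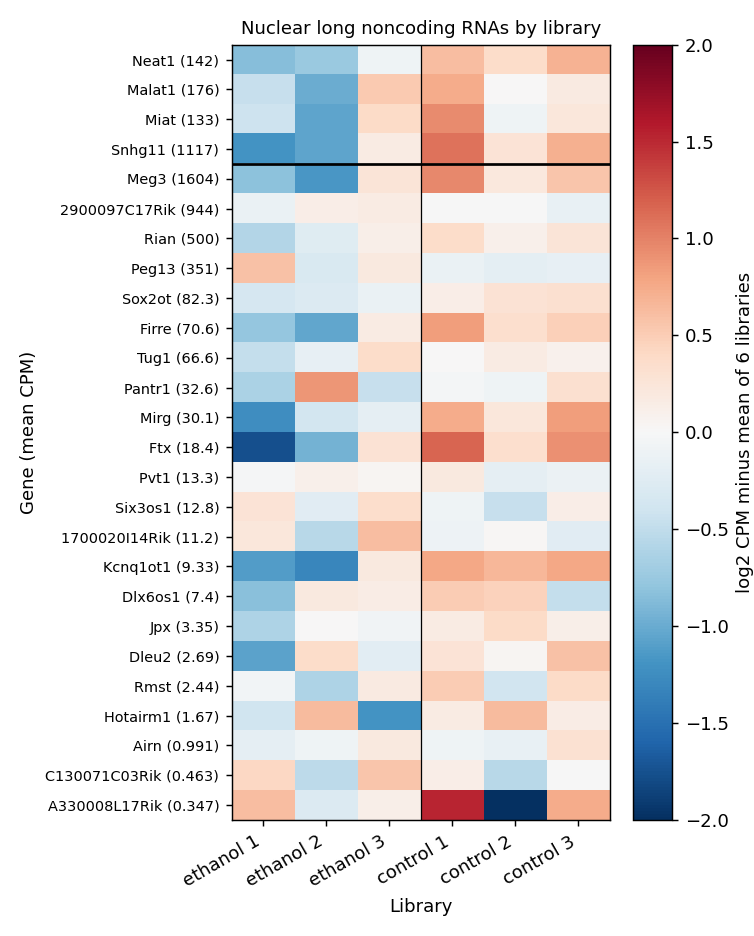
Level of each nuclear long noncoding RNA in each library, as log2 CPM minus the mean of the 6 libraries (blue lower, red higher), with the 4 RNAs above the line and the 22 tested members of the list under it, ordered by mean CPM (in parentheses). Snhg11, Meg3, Firre, Ftx and Kcnq1ot1 are lowest in ethanol 1 and ethanol 2, and other members, such as Peg13 and Pvt1, are not. A330008L17Rik in control 2 (-2.72) lies past the end of the colour scale.

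Host genes of small nucleolar RNAs, the class of Snhg11, had a median of -0.30 with 21 of 24 lower. It was -0.11 without ethanol 1 and -0.64 without ethanol 2. edgeR called 0, with 4 lower and 1 higher at an unadjusted p under 0.05, where all genes had 5.34% lower and 5.31% higher. Here too nothing is read from the shares, given how the list was chosen. Snhg3 had a log2 fold change of -0.79 (SE 0.29), without overlap of the groups. Snhg20 had one of -0.89 (SE 0.33), and its groups overlapped. Snhg14 went the other way, at 354.9, 447.3 and 574.6 CPM in ethanol, against 303.0, 153.9 and 110.4 CPM in control, a log2 fold change of 1.28 (SE 0.34, adjusted p = 0.419 by edgeR). DESeq2 called it higher, beside 0.323% of all genes. It runs antisense to Ube3a, so without strand its reads are uncertain. Rian is in both of these lists.

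Nuclear speckle genes and partners of Malat1 had a median of -0.37, with 23 of 31 lower. edgeR called 0 of them, 10 were lower and 0 higher at an unadjusted p under 0.05 (5.34% and 5.31% of all genes), and 2 were called lower by DESeq2 (0.59% of all genes). Because this list was also chosen with earlier results known, these counts are a description and no enrichment is read from them. Ccnl2, a cyclin of speckles, stood at 38.1, 51.8 and 59.1 CPM in ethanol, against 95.2, 79.1 and 99.2 CPM in control. Its log2 fold change was -0.88 (SE 0.20, adjusted p = 0.419 by edgeR). The kinases that phosphorylate SR splicing proteins had like values, with -1.14 (SE 0.34) for Clk1 and -1.10 (SE 0.29) for Clk4. The median of the list was -0.22 without ethanol 1 and -0.59 without ethanol 3.

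Partners of Miat were few. Srsf1, a splicing factor that is also in the speckle list, had a log2 fold change of -0.65 (SE 0.21), the RNA-binding protein gene Qk one of -0.31 (SE 0.20) and the splicing regulator gene Celf3 one of -0.20 (SE 0.22). Sf1 itself, which is said to bind the printed ACTAAC repeat, had one of -0.05 (SE 0.19). edgeR called 0 of the 4, with 1 lower and 0 higher at an unadjusted p under 0.05 (5.34% and 5.31% of all genes).

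Paraspeckle protein genes lay close to the middle of all genes, with a median of -0.09 and 17 of 30 lower. edgeR called 0, and 3 were lower and 0 higher at an unadjusted p under 0.05, beside 5.34% and 5.31% of all genes. The core proteins had log2 fold changes of -0.04 (SE 0.15) for Sfpq, 0.21 (SE 0.15) for Nono and -0.09 (SE 0.17) for Pspc1, next to -1.08 for Neat1 itself. The lowest p-values belonged to the splicing factor gene Srsf10 with -0.69 (SE 0.27), Dazap1 with -0.40 (SE 0.16) and Taf15 with -0.41 (SE 0.17). The list median turned to 0.01 without ethanol 1.

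For nuclear RNA end processing and decay the median was -0.12, with 12 of 20 lower (0.002 without ethanol 1) and 0 called by edgeR. At an unadjusted p under 0.05, 2 were lower and 0 higher, beside 5.34% and 5.31% of all genes. Pabpn1, the nuclear poly(A)-binding protein gene, stood at 107.8, 169.3 and 169.4 CPM in ethanol, against 265.8, 203.2 and 267.4 CPM in control, a log2 fold change of -0.72 (SE 0.21). Zcchc8, a subunit of the nuclear exosome targeting complex, had one of -0.44 (SE 0.17), and the RNase P subunit gene Rpp38 one of -0.45 (SE 0.28). Stress factors and regulators of Neat1 had a median of -0.02, with 9 of 16 lower and 0 called by edgeR. It was 0.007 without ethanol 3 and 0.021 without control 2. At an unadjusted p under 0.05 (10.7% of all genes) Mdm2, the brake on p53, was lower with -0.40 (SE 0.16) and the chaperone gene Dnajb1 higher with 0.41 (SE 0.17). Nfe2l2, the NRF2 gene, had 0.35 (SE 0.17).

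**Figure D5:**
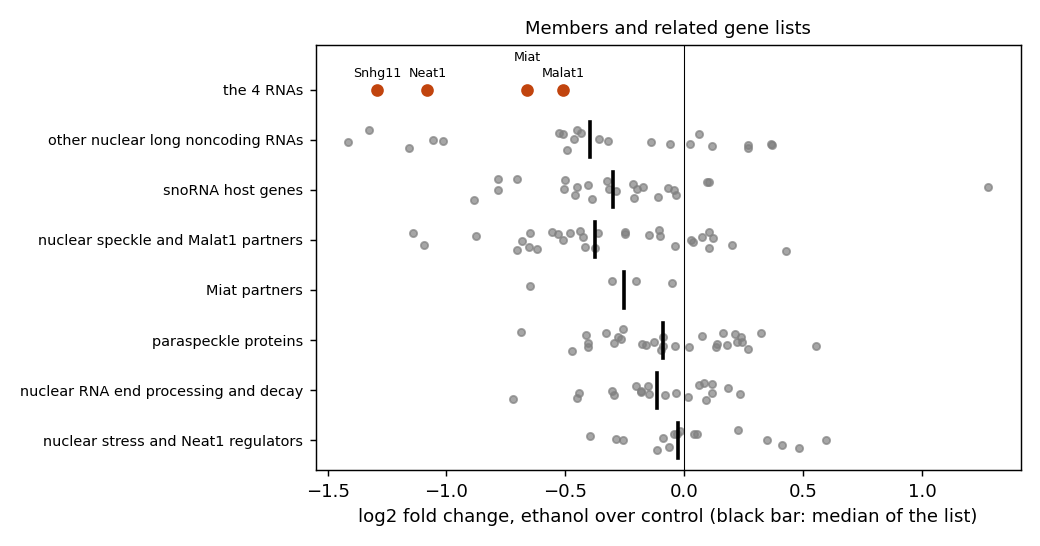
log2 fold changes (ethanol over control) of the 4 RNAs and of each tested gene in 7 related lists, with a black bar at the median of a list. Medians run from -0.40 in the other nuclear long noncoding RNAs to -0.02 in the stress list, and Snhg14 stands alone at 1.28.

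By Pearson r of log2 CPM over the 6 libraries, among 10445 genes, the genes most like Neat1 were Sav1 (0.996), Pan3 (0.996) and Dcun1d2 (0.993). Most like Snhg11 were Rbm28 (0.998), Adam1a (0.998) and Srsf11 (0.997). For Malat1 they were Vcan (0.988), Ercc6 (0.986) and Miat (0.986), and for Miat they were Ercc6 (0.994), Vcan (0.988) and Cstf2 (0.988). The points share their libraries and scaling, both groups enter, and with 6 points many genes reach a high r. Pan3, a subunit of a poly(A)-shortening complex, stood at 14.1, 15.5 and 21.8 CPM in ethanol, against 29.2, 28.0 and 33.2 CPM in control, a log2 fold change of -0.82 (SE 0.20, adjusted p = 0.419 by edgeR). Sav1 shared the order of libraries but not the size, with -0.28 (SE 0.16).

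Marker genes of cell types give the make-up of the samples. Medium spiny neurons are the main neurons of the striatum, and their markers were present, with a summed level of 2357 to 4232 CPM in ethanol and 2145 to 2544 CPM in control, with 13 of 14 higher. General neuronal markers summed to 5207 to 5810 CPM in ethanol and 5477 to 5742 CPM in control. Markers of cortical glutamatergic neurons, of which 7 of 9 tested were lower, summed to 286.7, 214.9 and 316.9 CPM in ethanol, against 590.0, 302.2 and 338.8 CPM in control. This sum was highest in control 1 and lowest in ethanol 2, as were the Malat1 and Miat levels. Meg3, Firre and Kcnq1ot1 had the same highest and lowest libraries, and Neat1 and Snhg11 did not, so the match is not particular to the cortical markers. Of the cortical markers, only Emx1 was at 0 in a library. Astrocyte markers summed to 2868 to 3398 CPM in ethanol and 2439 to 2816 CPM in control, and oligodendrocyte markers to 17770 to 23250 CPM in ethanol and 21150 to 25080 CPM in control. Microglial markers summed to 536.2 to 901.7 CPM in ethanol and 519.6 to 665.8 CPM in control. Vascular markers were at 225.6 to 267.5 CPM in ethanol and 260.7 to 306.3 CPM in control, and fibroblast markers, all 10 lower, at 584.7 to 1039 CPM in ethanol and 905.1 to 1299 CPM in control. Precursors of oligodendrocytes summed to 712.2 to 972.0 CPM in ethanol and 739.5 to 778.3 CPM in control. Choroid plexus markers summed to 23.0 to 34.5 CPM in ethanol and 21.1 to 424.2 CPM in control, highest in control 3, with Folr1 and Kcnj13 at 0 in a library. Some of these sums rest largely on a single gene. Mbp, of the oligodendrocyte markers, stood at 9671 to 13730 CPM in ethanol and 12209 to 14047 CPM in control. Ptgds, of the fibroblast markers, stood at 532.6 to 992.9 CPM in ethanol and 847.6 to 1197 CPM in control. In control 3, Ttr made up 394.4 CPM of the choroid plexus sum, and in control 1, Slc17a7 made up 288.6 CPM of the cortical sum. The part of these markers in the values of the 4 RNAs was not tested.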

How the data were processed

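The authors deposited 1 table with a row per RefSeq transcript and, per the file headers, a read count and an FPKM for each of 6 samples. The submitters' processing notes name mm10 and bcl2fastq. No aligner or counter is named in them. These deposited counts are taken as estimated counts, because the values that the FPKM implies for them were often fractions of a read, rounded up. In each library 100% of 7092 to 10795 rows with 1 to 200 reads and over 0.001 FPKM had a count from 0.1 below to 1.1 above the product of FPKM, length and the implied library total, so values were rounded up by at most about 1 read a row. The 36780 rows were summed to 24532 genes by gene identifier (10 identifiers had 2 symbols). Genes were kept by filterByExpr (minimum count 10), leaving 15774, scaled by TMM and compared with edgeR 4.0.16 (quasi-likelihood, R 4.3.3) in a model of group alone. Benjamini-Hochberg adjustment ran over all genes tested (threshold 0.05, two-sided). SE is the size of the log2 fold change over the square root of F. A floor of 3 reads corresponds to 0.048 to 0.082 CPM, depending on the library.

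Alternatives were DESeq2 1.42.0, limma 3.58.1 (voom), other scaling, no filter, a replicate block, each library left out, the top transcript row, log2(FPKM + 0.1) and, added after seeing the data, removal of a length trend (loess, span 0.5). The members and lists were chosen with earlier results of these data known. Named genes are the members, their neighbours within 100 kb, the 3 genes most like each in pattern with a mean log2 CPM of at least 3, and in each list the 3 with the lowest unadjusted p. Meg3, Rian, Ftx, Peg13, Pvt1, 2900097C17Rik, A330008L17Rik, Sfpq, Nono, Pspc1, Sf1, Xist, Tsix and Nespas were added after their values were seen. Sequences are from the GENCODE M21 transcript nearest in length to the deposited row, with motifs searched on the RNA strand. Figures used matplotlib 3.10.9 in Python 3.11.15.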

Additional observations from a re-analysis of the deposited data

How the results depend on the processing

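For the 4 RNAs, 59 of 60 alternative values of the log2 fold change kept their sign and moved by less than the SD of log2 CPM between replicates. The exception was Miat from variant 2 alone, at 0.04. That SD is wide for these RNAs, so a shift of Malat1 from -0.51 to -1.04 without ethanol 3 counts as within it. For Malat1 and Snhg11, with 1 row each, the top transcript row could not differ. The tally is therefore a weak check. Leaving out 1 library at a time gave -1.36 to -0.94 for Neat1, -1.85 to -1.05 for Snhg11, -1.04 to -0.24 for Malat1 and -1.12 to -0.31 for Miat. Genes called by edgeR in ethanol were 0 higher and 0 lower, and ranged from 0 to 201 higher and 0 to 10 lower when 1 library was left out (both highest without ethanol 2). DESeq2 called 51 higher and 93 lower. With 1 library left out, list medians ran from -0.133 to 0.014 for paraspeckle proteins, -0.59 to -0.22 for speckle genes, -0.14 to 0.002 for RNA end processing and -0.049 to 0.021 for stress regulators. With total counts only, which leaves out the TMM factors, the stress median was -0.11, and the median of each other list was lower too. The long Neat1 row's share was 0.783 percentage points higher in ethanol by reads and 0.121 by FPKM. FPKM divides by transcript length, which makes the share of a long row smaller. The causes of the shifts with 1 library left out were not tested. The medians of the other noncoding RNAs, snoRNA hosts and Miat partners kept their sign under each alternative. The replicate numbers are not said to pair samples, and deviations of same-numbered samples correlated by 0.15, -0.03 and -0.02. With the replicate block the log2 fold changes were -1.11 for Neat1, -1.39 for Snhg11, -0.62 for Malat1 and -0.72 for Miat, and 0 genes were called. With 3 libraries a group, depth (2409 reads or more per RNA) limits these values less than the spread between libraries.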
